A study of Mus musculus with 4 samples.

Results

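Venous-type blood endothelial cells were described in single-cell RNA sequencing of injured mouse Achilles tendon. A barcode was taken as such a cell when it held 500 or more genes, 1000 or more unique molecular identifiers (UMIs, counts of captured RNA molecules) and under 15% mitochondrial UMIs, at least 2 UMIs of the endothelial genes Pecam1 and Cdh5 together, no UMI of Prox1, Mmrn1, Ptprc or Timp4, and at least 3 UMIs summed over Vwf, Aplnr, Ackr1 and Selp, called the venous sum here. The rule found 495 cells among 13459 kept barcodes of the 2 libraries it names, in a series of 4 libraries with 19021 kept barcodes. Of the 495, 32 came from Prox1 eGFP day 21 and 463 from Vegfc CRE day 7. Prox1 eGFP day 21 was made of tendons of mice labelled Prox1 eGFP, at day 21 and with the treatment B/T. Vegfc CRE day 7 was made of tendons of mice labelled Vegfc CRE, at day 7 and with the same treatment. The labels expand neither the treatment's abbreviation nor the driver of the CRE, and give no ages. Each library was 1 pool of cells of 5 tendons, so no difference below has a replicate check and no test or p-value is given. The libraries differed in mouse line, day and mix of cells, which cannot be told apart.

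In the wall of small vessels, blood leaves the capillaries through post-capillary venules, where plasma proteins leak and white cells leave the blood during injury. Venular endothelium is known for P-selectin (Selp) and von Willebrand factor (Vwf), both stored in Weibel-Palade bodies, for the atypical chemokine receptor Ackr1, which carries chemokines across the wall, and for the apelin receptor Aplnr, which capillary endothelium of growing vessels can also carry. Timp4, an inhibitor of matrix metalloproteinases, marked the cells set beside them, which passed the same endothelial filter with at least 1 Timp4 UMI and any venous sum. Prox1 and Mmrn1 mark lymphatic endothelium and Ptprc marks leukocytes, so the rule kept both out.

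Ackr1 and Selp, from the rule, and Lrg1, the most abundant gene named as higher outside it, are shown by their promoters, taken from RefSeq (GRCm38.p6) as 250 bases before and 50 after the transcript start. Ackr1 is protein coding at chr1:173331886-173333750 on the minus strand, Selp at chr1:164115264-164150026 on the plus strand, and Lrg1 at chr17:56119678-56122001 on the minus strand, in GENCODE on the same assembly. The windows are chr1:173333454-173333753 (minus strand), chr1:164115014-164115313 (plus strand) and chr17:56121897-56122196 (minus strand). Capitals mark AGGTCA, bound by nuclear receptors such as the venous factor Nr2f2, AGATAA, of the GATA type, and a motif of the NF-kappaB type, searched on both strands; TGACCT and TTATCT are their forms on the other strand. No matches overlapped in these windows.
Ackr1: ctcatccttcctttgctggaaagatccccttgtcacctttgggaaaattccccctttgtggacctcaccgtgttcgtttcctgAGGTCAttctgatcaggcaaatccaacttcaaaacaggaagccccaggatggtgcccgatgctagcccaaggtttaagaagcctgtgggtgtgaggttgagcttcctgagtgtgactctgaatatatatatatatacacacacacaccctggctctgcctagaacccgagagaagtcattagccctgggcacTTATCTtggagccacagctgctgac
Selp: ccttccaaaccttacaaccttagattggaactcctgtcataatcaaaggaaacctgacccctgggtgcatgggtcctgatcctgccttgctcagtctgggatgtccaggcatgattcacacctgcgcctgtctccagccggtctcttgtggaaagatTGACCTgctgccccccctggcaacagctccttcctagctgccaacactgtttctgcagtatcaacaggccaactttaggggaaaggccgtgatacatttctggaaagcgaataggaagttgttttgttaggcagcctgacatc
Lrg1: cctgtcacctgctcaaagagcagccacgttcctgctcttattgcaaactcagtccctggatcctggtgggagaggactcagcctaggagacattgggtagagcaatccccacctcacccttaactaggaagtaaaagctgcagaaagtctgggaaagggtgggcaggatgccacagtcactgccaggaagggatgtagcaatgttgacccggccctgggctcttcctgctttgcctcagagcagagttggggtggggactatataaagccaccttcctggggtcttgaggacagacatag
Ackr1 held 1 AGGTCA and 1 AGATAA, Selp held 1 AGGTCA, and the Lrg1 window held none of the 3 motifs. AGGTCA was found in 18.1% of 27025 genes with a promoter window, AGATAA in 12.7% and the NF-kappaB motif in 1.89%. Of the 154 genes higher in venous-type cells of both libraries, counted below, 115 had a window, and 11.3% of these held AGGTCA, 7.83% AGATAA and 2.61% the NF-kappaB motif. Over the genes tested in both libraries that had a window, the shares were 14.2%, 7.17% and 2.04%. A match is a run of letters and not a site shown to be bound.

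The Prox1 eGFP day 21 library held 6704 barcodes with 59894792 UMIs, and Vegfc CRE day 7 held 8711 with 92568978. The protocol of all 4 libraries describes a sort for Prox1-expressing cells, while another label calls the same cells unsorted. A Prox1 UMI was present in 86.9% of kept barcodes of Prox1 eGFP day 21 and in 1.15% of Vegfc CRE day 7, and such a sort can set the shares of cells given next. The libraries shared 6 kept barcodes, none of them a venous-type cell.

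Venous-type cells made up 0.501% of the kept barcodes of Prox1 eGFP day 21 (exact 95% interval 0.343% to 0.706%) and 6.55% of those of Vegfc CRE day 7 (5.98% to 7.15%). Intervals here and below cover counting error only. Among the 92 and 656 cells that passed the endothelial filter, the venous-type share was 34.8% (25.1% to 45.4%) in Prox1 eGFP day 21 and 70.6% (66.9% to 74.0%) in Vegfc CRE day 7. Timp4-positive cells numbered 37 and 98, and the rest of the filter, with neither a Timp4 UMI nor a sum of 3, numbered 23 and 95. In Prox1 eGFP day 21, 1942 of 2039 barcodes with the Pecam1 and Cdh5 UMIs held a Prox1 UMI, against 29 of 781 in Vegfc CRE day 7. In the 2 libraries, 20 and 18 further cells failed the rule on Prox1 alone, with a median of 3 and 1 Prox1 UMIs. Nearly all of the Pecam1 and Cdh5 barcodes of Prox1 eGFP day 21 were therefore removed as Prox1-bearing, and the 32 cells are what the rule left.

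The venous sum was made of different genes in the 2 libraries. Vwf gave 37.5% of its UMIs in Prox1 eGFP day 21, Selp 33.6%, Ackr1 20.05% and Aplnr 8.88%. In Vegfc CRE day 7, Aplnr gave 52.1%, Selp 17.8%, Vwf 16.5% and Ackr1 13.6%. Vwf was found in 29 of 32 cells of Prox1 eGFP day 21 and in 276 of 463 cells of Vegfc CRE day 7, and Aplnr in 19 of 32 and 434 of 463. Ackr1 was found in 17 and 154 cells, and Selp in 22 and 258. Without Aplnr in the sum, 3 of the 32 cells would have been lost in Prox1 eGFP day 21, and 212 of the 463, or 45.8%, in Vegfc CRE day 7. Without Vwf the losses would have been 10 and 21. Cells that held Aplnr and none of the other 3 genes numbered 2 of 32 and 120 of 463, or 25.9%. All of these genes were chosen by the rule, so their levels describe the members and support nothing else.

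**Figure D1:**
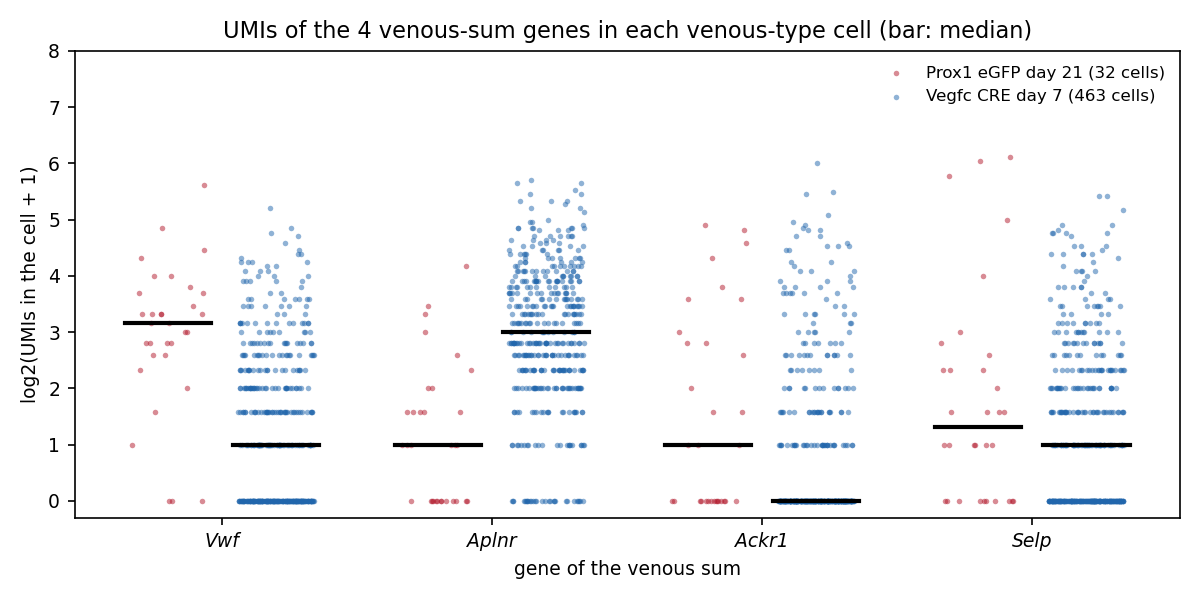
UMIs of Vwf, Aplnr, Ackr1 and Selp in each venous-type cell, as log2(UMIs + 1), with 1 point per cell and a bar at the median. Prox1 eGFP day 21 has its highest median at Vwf (8 UMIs) and Vegfc CRE day 7 at Aplnr (7 UMIs).

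The threshold passed through a run of cells with low sums. A venous sum of exactly 3 was found in 1 and 26 members, and 3 and 20 endothelial cells without Timp4 fell just short with a sum of 2. In Vegfc CRE day 7, Plvap stood at 774 CPM (UMIs per 1000000 UMIs of the class) in the cells at 3 and at 775 CPM in those at 2, and Lrg1 at 223 and 339 CPM. Of the Timp4-positive cells, 8 of 37 and 47 of 98 reached a venous sum of 3 and were kept apart by their Timp4 UMI alone. The median depth of venous-type cells was 8659.5 UMIs in Prox1 eGFP day 21 and 11194 in Vegfc CRE day 7, and that of Timp4-positive cells was 5999 and 6456. The deepest venous-type cell of Prox1 eGFP day 21 gave 10.0% of that group's UMIs.

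Genes outside the rule were then described in the members. Egfl7, a secreted endothelial protein, was found in 32 of 32 and 461 of 463 venous-type cells, and Esam, an endothelial junction protein, in 32 and 454. Of a list of 18 venous and post-capillary genes that the rule did not use, 12 of 16 with at least 10 UMIs over both groups were at least 2-fold higher in venous-type than in Timp4-positive cells of Prox1 eGFP day 21, and 8 of 18 in those of Vegfc CRE day 7, with 0 at least 2-fold lower in either. Tll1 and Flrt2 were the 2 not measured in Prox1 eGFP day 21. Over all genes measured, 10.7% were that much higher in Prox1 eGFP day 21 and 7.52% in Vegfc CRE day 7. The median log2 ratio of the list was 2.85 and 0.84, beside -0.10 and -0.09 over all genes. In Vegfc CRE day 7 the list's median was 1.40 with Aplnr left out of the sum and 1.57 for members with an Ackr1 UMI only, and it differed widely between kinds of members, as given further on. The cells were chosen by measured values of this same contrast, so the shares are a description and no support for the label.

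Venous-type cells were set beside Timp4-positive cells of their own library. In both libraries 154 genes, 2.13% of the 7228 measured, were at least 2-fold higher in venous-type cells, and 273, or 3.78%, were at least 2-fold lower. Thinning every cell to 2000 UMIs gave 81 higher and 118 lower genes, a minimum of 30 UMIs gave 74 and 144, and averaging CPM over cells gave 297 higher ones. The plot of log2 ratios in the 2 libraries shows both sets of named genes in opposite corners.

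**Figure D2:**
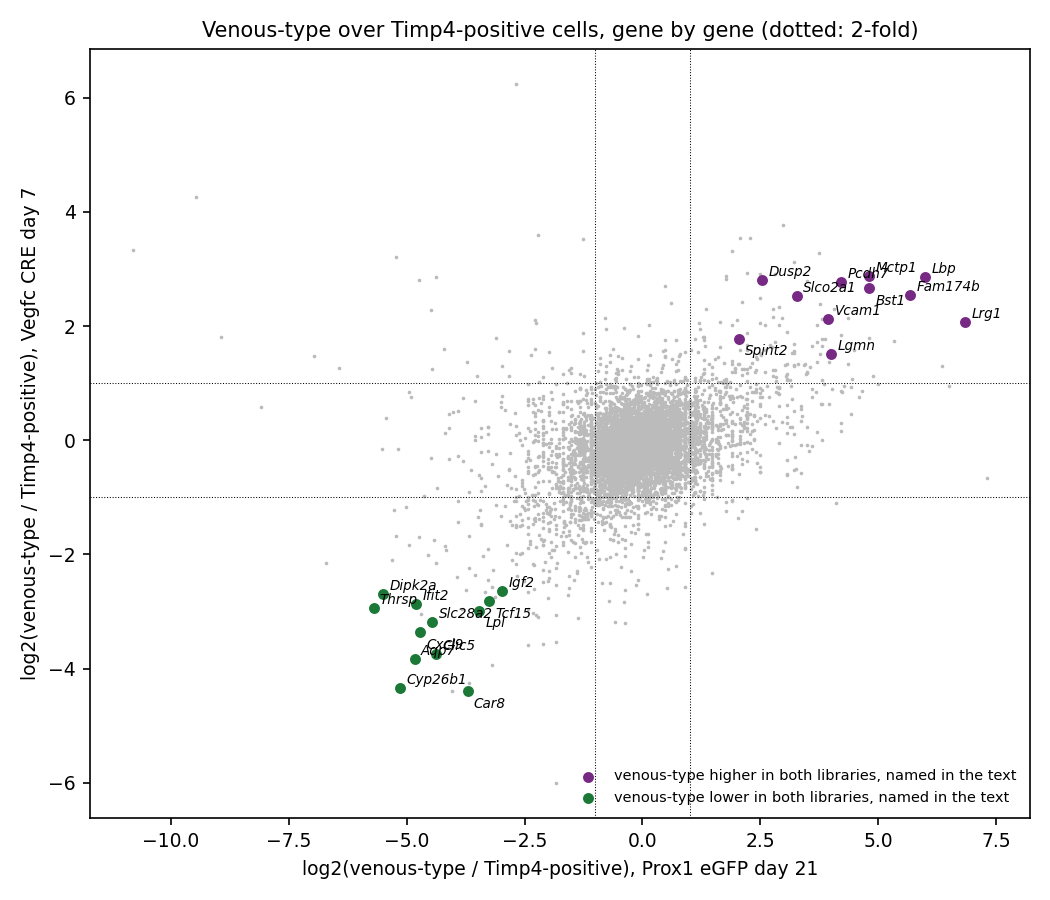
Log2 ratio of venous-type over Timp4-positive cells in Prox1 eGFP day 21 (x axis) against Vegfc CRE day 7 (y axis), 1 point for each of 7228 genes, with a group at 0 UMIs set to a floor of 3 UMIs. The genes named as higher in both libraries lie at the upper right and the 12 named as lower at the lower left.

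Lrg1, a secreted glycoprotein of venules induced by inflammation, was the most abundant of the 12 genes named as higher. It was measured at 1967 CPM in venous-type and 17.1 CPM in Timp4-positive cells of Prox1 eGFP day 21 (115-fold, 95% interval 52.5 to 314), and at 852 CPM in venous-type and 204 CPM in Timp4-positive cells of Vegfc CRE day 7 (4.18-fold, 95% interval 3.61 to 4.86). After thinning to 2000 UMIs, 78.1% of venous-type and 3.03% of Timp4-positive cells of Prox1 eGFP day 21 held an Lrg1 UMI, and 66.96% and 5.49% in Vegfc CRE day 7. In barcodes without endothelial UMIs the thinned share was 0.981% and 11.6%, so the share in the Timp4-positive cells of Vegfc CRE day 7 was below that background. Unthinned, the shares with an Lrg1 UMI were 100% and 8.11% in Prox1 eGFP day 21 and 90.1% and 20.4% in Vegfc CRE day 7.

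Slco2a1, the prostaglandin transporter, stood at 330.5 CPM in venous-type and 34.3 CPM in Timp4-positive cells of Prox1 eGFP day 21 and 187 CPM in venous-type and 32.5 CPM in Timp4-positive cells of Vegfc CRE day 7 (5.74-fold, 95% interval 4 to 8.54). Plvap, which forms the diaphragms of endothelial openings, was at 2377 CPM in venous-type and 294 CPM in Timp4-positive cells of Prox1 eGFP day 21 (8.08-fold, 95% interval 6.58 to 10.01) and at 1139 CPM in venous-type and 457 CPM in Timp4-positive cells of Vegfc CRE day 7 (2.50-fold, 95% interval 2.26 to 2.76). Both genes were higher in venous-type cells of each library beyond their counting intervals. Lbp, which binds bacterial lipopolysaccharide, had 205 UMIs in 24 venous-type cells and none in Timp4-positive cells of Prox1 eGFP day 21, at least 63.8-fold higher against a floor of 3 UMIs over the group (51.4-fold at the lower limit of the 95% interval), and 118 CPM in venous-type and 16.3 CPM in Timp4-positive cells of Vegfc CRE day 7. Barcodes outside the endothelial filter held Lbp at 482 and 247 CPM, and the thinned share of cells with a UMI in Vegfc CRE day 7 was 16.1% in venous-type cells beside 13.8% in non-endothelial barcodes. In Prox1 eGFP day 21 these shares were 56.2% and 7.53%. Other named genes were Mctp1, Dusp2, Bst1, Fam174b, Vcam1, Spint2, Lgmn and Pcdh7. Their levels in venous-type cells ran between 79.95 and 413 CPM in Prox1 eGFP day 21 and between 22.3 and 314 CPM in Vegfc CRE day 7. In Vegfc CRE day 7 the thinned shares in venous-type cells and non-endothelial barcodes were 9.78% and 11.4% for Dusp2. They were 7.83% and 9.03% for Bst1, 46.3% and 42.6% for Lgmn and 8.48% and 9.11% for Vcam1. For Mctp1, Fam174b, Spint2 and Pcdh7 the venous-type share was the higher. In Prox1 eGFP day 21 it was the higher for all of these but Vcam1.

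**Figure D3:**
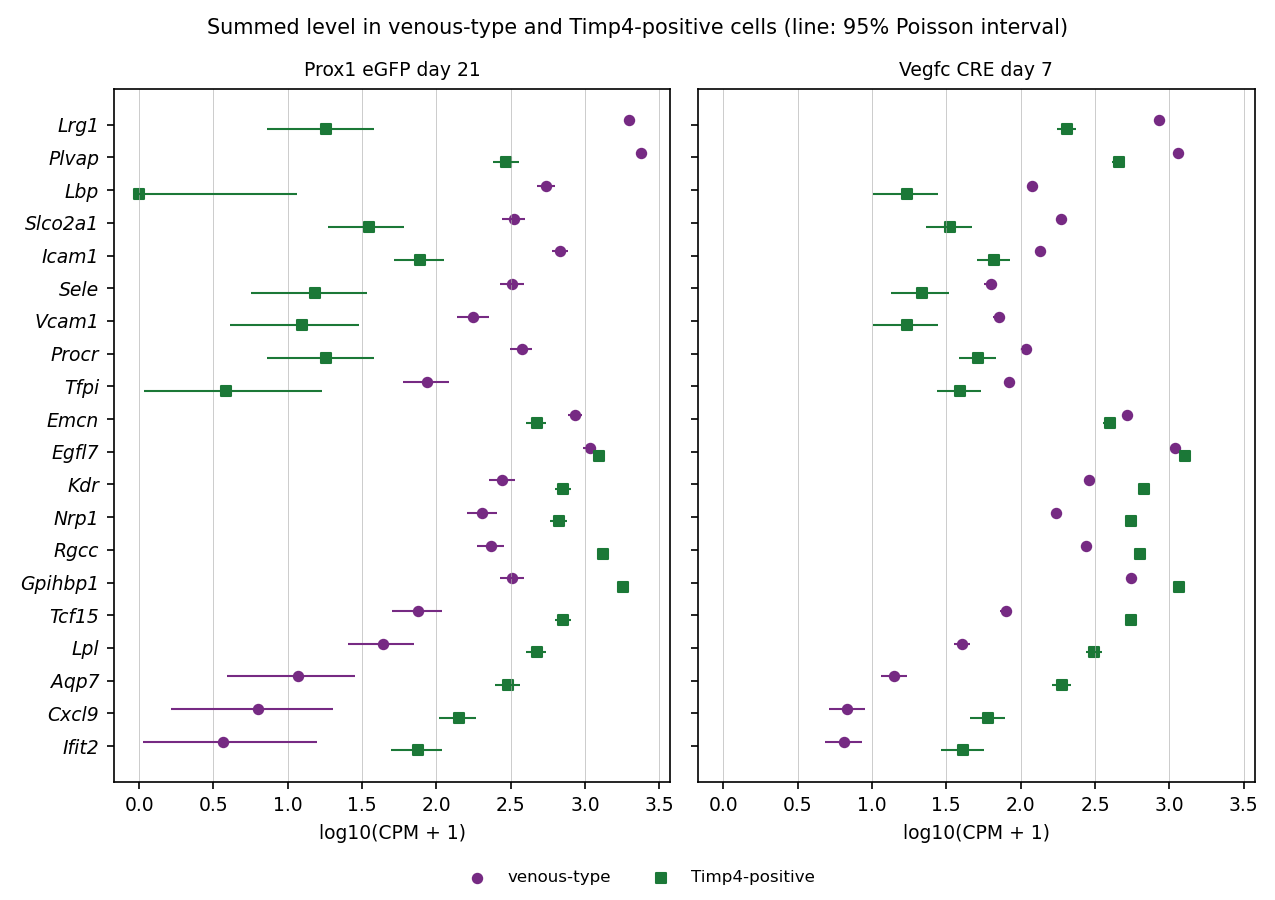
Level of 20 genes in venous-type (circles) and Timp4-positive cells (squares), as log10(CPM + 1), for each library, with the 95% Poisson interval of the summed count. Lrg1 through Emcn are higher in venous-type cells of both libraries and Kdr through Ifit2 are lower, while Egfl7 lies near the same level.

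Receptors by which white cells hold on to the vessel wall were split. Sele (E-selectin), Icam1 and Vcam1 were at least 2-fold higher in venous-type cells of both libraries. Vcam1 was not particular to them. Its thinned share of cells with a UMI in Prox1 eGFP day 21 was 21.9% in venous-type cells and 51.9% in non-endothelial barcodes. In Vegfc CRE day 7 these shares were 8.48% and 9.11%. In Prox1 eGFP day 21, 1 venous-type cell held 30.3% of the Vcam1 UMIs of its class. E-selectin was at 322 CPM in venous-type and 14.3 CPM in Timp4-positive cells of Prox1 eGFP day 21 (22.6-fold, 95% interval 9.41 to 70.8) and 61.7 CPM in venous-type and 20.6 CPM in Timp4-positive cells of Vegfc CRE day 7 (2.996-fold, 95% interval 1.89 to 5.03). Sele was unevenly spread, in 12 of 32 and 127 of 463 venous-type cells, and 1 cell held 31.4% of its UMIs in Prox1 eGFP day 21. Icam1, the integrin ligand on which leukocytes come to rest, was at 679.6 CPM in venous-type and 77.1 CPM in Timp4-positive cells of Prox1 eGFP day 21 and 134 CPM in venous-type and 65.1 CPM in Timp4-positive cells of Vegfc CRE day 7. Podxl and Jam3 were at least 2-fold lower in both, and Icam2, Cd34, Esam and F11r lay within 2-fold in both. Over the 11 and 14 measured members of the adhesion list the median log2 ratio was -0.15 and -0.01, close to all genes. Glycam1, a mucin-type ligand of L-selectin known in lymph node venules, was found in 2 of 32 and 58 of 463 venous-type cells and in 0 Timp4-positive cells of both libraries. Its level in venous-type cells of Vegfc CRE day 7 was 61.6 CPM, with 26.7% of the UMIs in 1 cell.

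The haemostasis and fibrinolysis list, which holds genes that promote clotting as well as genes that limit it, had more members higher than lower. Of the measured members, 9 of 13 were at least 2-fold higher and 1 lower in Prox1 eGFP day 21, and 7 of 16 and 0 in Vegfc CRE day 7, with medians of 1.39 and 0.81. Over all genes, 10.7% and 7.52% were that much higher and 13.6% and 9.48% lower. Among the 6 members of the list higher in both were Procr, F8, Plaur, Tfpi and Entpd1. Procr, the receptor of protein C, was at 373 CPM in venous-type and 17.1 CPM in Timp4-positive cells of Prox1 eGFP day 21 (21.8-fold, 95% interval 9.75 to 60.3) and 107 CPM in venous-type and 50.97 CPM in Timp4-positive cells of Vegfc CRE day 7 (2.11-fold, 95% interval 1.57 to 2.90). Tfpi, which blocks the start of clotting, was at 85.3 CPM in venous-type and 2.86 CPM in Timp4-positive cells of Prox1 eGFP day 21 and 82.9 CPM in venous-type and 37.95 CPM in Timp4-positive cells of Vegfc CRE day 7. Thrombomodulin (Thbd), the partner of Procr in the same pathway, lay the other way within 2-fold, at 123 CPM in venous-type and 177 CPM in Timp4-positive cells of Prox1 eGFP day 21 and 104 CPM in venous-type and 153 CPM in Timp4-positive cells of Vegfc CRE day 7. Nos3, which makes nitric oxide, was at 77.3 CPM in venous-type and 71.4 CPM in Timp4-positive cells of Prox1 eGFP day 21 and 85.5 CPM in venous-type and 82.4 CPM in Timp4-positive cells of Vegfc CRE day 7, and both counting intervals of the ratio included 1.

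Complement genes had medians of 2.73 and 0.52, with 4 of 6 and 4 of 12 measured genes at least 2-fold higher, beside 10.7% and 7.52% of all genes. Of the complement genes, Cfb and Cd55 were higher in both. Chemokines and cytokines had medians of 0.39 and -0.16. Il6st, the signalling chain of the interleukin-6 family, was at 770.2 CPM in venous-type and 109 CPM in Timp4-positive cells of Prox1 eGFP day 21 (7.10-fold, 95% interval 5.05 to 10.2) and 327 CPM in venous-type and 158 CPM in Timp4-positive cells of Vegfc CRE day 7 (2.06-fold, 95% interval 1.74 to 2.46), and Il1r1, the interleukin-1 receptor, was also at least 2-fold higher in both. Cd55, which shields cells from complement, was at 125 CPM in venous-type and 8.57 CPM in Timp4-positive cells of Prox1 eGFP day 21 and 29.7 CPM in venous-type and 8.68 CPM in Timp4-positive cells of Vegfc CRE day 7. Cfb, a factor of the alternative complement pathway, had 29 UMIs in venous-type and 0 in Timp4-positive cells of Prox1 eGFP day 21, and 62.3 CPM in venous-type and 21.7 CPM in Timp4-positive cells of Vegfc CRE day 7. Of the chemokine and cytokine list, only Cxcl9 and Cxcl12 were at least 2-fold lower in venous-type cells of both libraries, and only Il6st and Il1r1 that much higher.

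Capillary genes were lower. Of 17 measured capillary genes, 12 in Prox1 eGFP day 21 and 13 in Vegfc CRE day 7 were at least 2-fold lower in venous-type cells and 0 higher, 11 of them in both libraries, beside 13.6% and 9.48% of all genes. The list's medians were -2.42 and -1.46. Gpihbp1, which anchors lipoprotein lipase to the capillary wall, was at 322 CPM in venous-type and 1794 CPM in Timp4-positive cells of Prox1 eGFP day 21 (5.56-fold lower, 4.57 to 6.82) and at 552 CPM in venous-type and 1155 CPM in Timp4-positive cells of Vegfc CRE day 7 (2.09-fold lower, 1.95 to 2.24). Lpl itself was at 42.6 CPM in venous-type and 471 CPM in Timp4-positive cells of Prox1 eGFP day 21 and 39.3 CPM in venous-type and 311 CPM in Timp4-positive cells of Vegfc CRE day 7, and Cd36, the fatty acid receptor, at 344 CPM in venous-type and 2217 CPM in Timp4-positive cells and 525 CPM in venous-type and 2068 CPM in Timp4-positive cells of the same libraries. Tcf15, a transcription factor of fatty-acid-handling capillaries, was 9.49-fold lower, 6.41 to 14.6, in Prox1 eGFP day 21 and 7.04-fold lower, 6.22 to 7.98, in Vegfc CRE day 7. The 6 measured capillary genes outside that overlap were Fabp4, C1qtnf9, Fabp5, Aqp1, Meox2 and Sgk1, the first 3 of them 2-fold lower in 1 library.

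The 12 genes named as lower, by the counting interval, were Aqp7, Clic5, Cyp26b1, Cxcl9, Lpl, Tcf15, Car8, Slc28a2, Thrsp, Dipk2a, Ifit2 and Igf2. Aqp7, a channel for glycerol, was at 10.7 CPM in venous-type and 303 CPM in Timp4-positive cells of Prox1 eGFP day 21 (28.4-fold lower, 10.8 to 106) and 13.1 CPM in venous-type and 188 CPM in Timp4-positive cells of Vegfc CRE day 7 (14.3-fold lower, 10.99 to 18.8). Cyp26b1, which breaks down retinoic acid, was at 5.33 CPM in venous-type and 189 CPM in Timp4-positive cells of Prox1 eGFP day 21 and 6.55 CPM in venous-type and 132 CPM in Timp4-positive cells of Vegfc CRE day 7. Only 2 of 32 and 19 of 463 venous-type cells held a Cyp26b1 UMI. Clic5 was at 23.99 CPM in venous-type and 497 CPM in Timp4-positive cells of Prox1 eGFP day 21 and 18.6 CPM in venous-type and 250.5 CPM in Timp4-positive cells of Vegfc CRE day 7. Igf2, a growth factor, had no UMI in the 32 venous-type cells of Prox1 eGFP day 21, at least 7.86-fold lower than in Timp4-positive cells against a floor of 3 UMIs over the group and 5.87-fold lower at the near limit of the 95% interval.

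Receptors for vascular endothelial growth factor were lower as well. Of 6 measured VEGF ligands and receptors in Prox1 eGFP day 21, 4 were at least 2-fold lower in venous-type cells and 1 higher. In Vegfc CRE day 7, 5 of 10 were that much lower and 0 higher. Of all genes, 13.6% and 9.48% were that much lower and 10.7% and 7.52% higher. Kdr, Flt1 and Nrp1 were lower in both. Kdr, the main receptor of VEGF-A, was at 277 CPM in venous-type and 708 CPM in Timp4-positive cells of Prox1 eGFP day 21 (2.56-fold lower, 2.02 to 3.25) and 288 CPM in venous-type and 679.9 CPM in Timp4-positive cells of Vegfc CRE day 7 (2.36-fold lower, 2.16 to 2.59). Nrp1, its co-receptor on arteries and capillaries, was at 203 CPM in venous-type and 666 CPM in Timp4-positive cells of Prox1 eGFP day 21 and 171 CPM in venous-type and 548 CPM in Timp4-positive cells of Vegfc CRE day 7. Nrp2, the co-receptor known from veins and lymphatics, lay within 2-fold, at 256 CPM in venous-type and 189 CPM in Timp4-positive cells of Prox1 eGFP day 21 and 203 CPM in venous-type and 180 CPM in Timp4-positive cells of Vegfc CRE day 7. Nrp1 was thus lower in venous-type cells of both libraries, while the counting interval of the Nrp2 ratio included 1 in each.

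Interferon-response genes were lower in venous-type cells. At least 2-fold lower were 10 of 15 in Prox1 eGFP day 21 and 8 of 15 in Vegfc CRE day 7, beside 13.6% and 9.48% of all genes. None was that much higher, and the medians were -1.42 and -1.13. The 6 lower in both were Ifit1, Ifit2, Ifit3, Rsad2, Irf7 and Igtp. Rsad2, an antiviral enzyme, was at 10.7 CPM in venous-type and 223 CPM in Timp4-positive cells of Prox1 eGFP day 21 (20.9-fold lower, 7.84 to 78.6) and 22.7 CPM in venous-type and 101 CPM in Timp4-positive cells of Vegfc CRE day 7 (4.44-fold lower, 3.39 to 5.79). Isg15, a ubiquitin-like protein, was at 144 CPM in venous-type and 468 CPM in Timp4-positive cells of Prox1 eGFP day 21 and 91.8 CPM in venous-type and 164 CPM in Timp4-positive cells of Vegfc CRE day 7.

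Arterial genes were mixed. In Prox1 eGFP day 21, 8 of 16 were at least 2-fold lower in venous-type cells and 2 higher, and in Vegfc CRE day 7, 4 of 17 lower and 2 higher. Over all genes, 13.6% and 9.48% were that much lower and 10.7% and 7.52% higher. The medians of the arterial list were -0.93 and -0.53. After thinning to 2000 UMIs the median in Prox1 eGFP day 21 was 0.28, of the opposite sign. Dll4, a Notch ligand, Cxcl12, a chemokine, Alpl and Unc5b were lower in both, and Bmx, a kinase known from arteries, was higher in both. Cxcl12 was at 632 CPM in venous-type and 2288 CPM in Timp4-positive cells of Prox1 eGFP day 21 and 515 CPM in venous-type and 1299 CPM in Timp4-positive cells of Vegfc CRE day 7. Bmx was at 39.98 CPM in venous-type and 5.71 CPM in Timp4-positive cells of Prox1 eGFP day 21 and 10.7 CPM in venous-type and 3.25 CPM in Timp4-positive cells of Vegfc CRE day 7. Of Notch genes, 5 of 9 and 2 of 11 were lower and 0 higher, beside the shares of all genes given for the arterial list, with Dll4 the one lower in both.

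Other lists had medians nearer to those of all genes in at least 1 library. The median of the endothelial junction and identity list was -0.24 and -0.40, with Cldn5, a protein of tight junctions, the one gene at least 2-fold lower in both. Cldn5 was at 159.9 CPM in venous-type and 466 CPM in Timp4-positive cells of Prox1 eGFP day 21 and 449.5 CPM in venous-type and 980.3 CPM in Timp4-positive cells of Vegfc CRE day 7. Basement membrane genes had medians of -0.29 and -0.04, with Col18a1 higher in both. The median of MHC genes was -0.41 and 0.17, that of glycolysis and hypoxia genes 0.29 and 0.43, and that of BMP and TGF-beta genes 0.12 and 0.02. Genes of sprouting tips had medians of -1.10 and -0.20, with 7 of 13 and 4 of 18 lower and 3 higher in each library, beside 13.6% and 9.48% of all genes lower and 10.7% and 7.52% higher. Of these, Apln, the ligand of Aplnr, was higher in both, at 31.98 CPM in venous-type and 5.71 CPM in Timp4-positive cells of Prox1 eGFP day 21 and 67.4 CPM in venous-type and 11.9 CPM in Timp4-positive cells of Vegfc CRE day 7. Angpt2, which is kept in the same storage bodies as Vwf, was at least 2-fold higher in both as well, at 55.97 CPM in venous-type and 25.7 CPM in Timp4-positive cells of Prox1 eGFP day 21 and 31.2 CPM in venous-type and 15.2 CPM in Timp4-positive cells of Vegfc CRE day 7. The counting interval of the Angpt2 ratio in Prox1 eGFP day 21 included 1. Rgs5, better known from pericytes, was 6.002-fold lower, 4.72 to 7.71, in Prox1 eGFP day 21 and 3.98-fold lower, 3.71 to 4.28, in Vegfc CRE day 7.

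**Figure D4:**
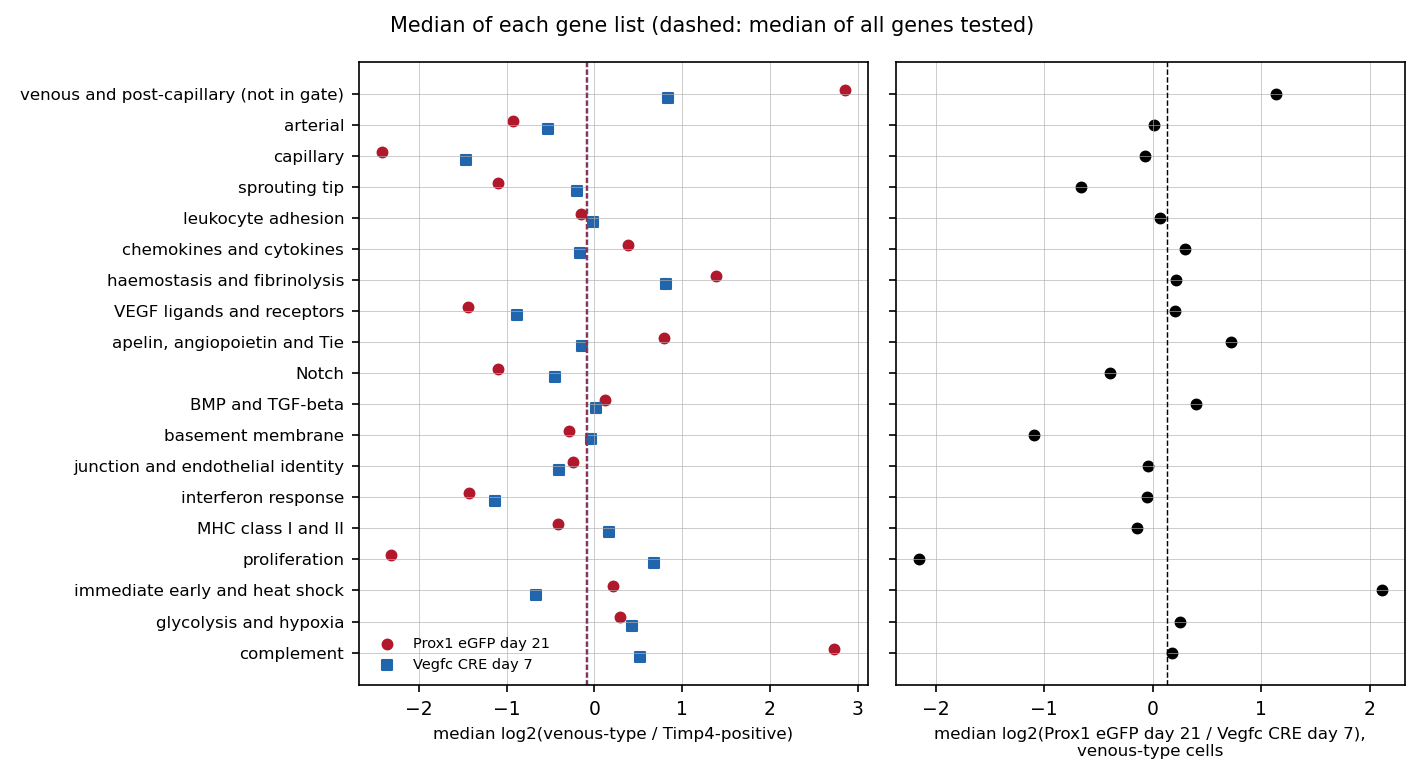
Median log2 ratio of each gene list, for venous-type over Timp4-positive cells in each library (left; circles Prox1 eGFP day 21, squares Vegfc CRE day 7) and for Prox1 eGFP day 21 over Vegfc CRE day 7 in venous-type cells (right); dashed lines are the medians of all genes tested. The venous list is the highest of the left panel in Prox1 eGFP day 21.

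The 463 cells of Vegfc CRE day 7 were not of one kind. They were split by the sum genes they held: 29 cells without Aplnr, 314 with Aplnr and at least 1 of the other 3 genes, and 120 with Aplnr alone. The split uses the rule's own genes, so the values of other genes are given as descriptions. The median depth was 9079, 11575.5 and 11309 UMIs in that order.

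Venular genes were lowest in the cells with Aplnr alone. Lrg1 was at 1093 CPM in the cells without Aplnr, 1041 CPM in those with Aplnr and another gene and 337 CPM in those with Aplnr alone. Sele was at 98.3, 79.6 and 11.2 CPM in the same order, and Slco2a1 at 284, 231 and 59.9 CPM. Nr2f2, the transcription factor of vein identity, was at 309.6, 207 and 92.3 CPM, beside 97.6 CPM in Timp4-positive cells. Over the venous list, the cells with Aplnr alone had a median log2 ratio to Timp4-positive cells of -0.08, with 1 of 17 genes at least 2-fold higher and 4 lower, beside -0.11 over all genes, of which 6.8% were that much higher and 10.2% lower. These 120 cells, 25.9% of the members, met the rule by Aplnr alone. Over the venous list they showed no excess over Timp4-positive cells beyond that of all genes. Pericyte genes were at least 2-fold lower in 7 of 10 cases in these cells than in Timp4-positive cells, and fibroblast genes higher in 3 of 10, and their part in these values was not tested.

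The same 120 cells held more RNA of the capillary and proliferation genes named next than the other members. Gpihbp1 was at 933 CPM with Aplnr alone, 426 CPM with Aplnr and another gene and 127 CPM without Aplnr. Rgcc, which is known from capillary endothelium, was at 464, 213 and 61.9 CPM in the same order. Top2a, a topoisomerase of dividing cells, was at 76.7, 54.5 and 7.28 CPM. Of 17 capillary genes, 10 were at least 2-fold lower in the cells with Aplnr alone than in Timp4-positive cells and 0 higher (median -1.19). Of 16 proliferation genes, 10 were at least 2-fold higher in the same comparison and 0 lower (median 1.14). Of the immediate early and heat shock list, 12 of 16 genes were at least 2-fold lower there and 0 higher (median -1.19). Interferon-response genes were that much lower in 10 of 15 cases and higher in 0 (median -1.13). Over all genes in that comparison, 6.8% were that much higher and 10.2% lower. In the cells without Aplnr 8 of 13 proliferation genes were lower and 0 higher (median -1.42), beside 8.54% of all genes higher and 13.3% lower in their own comparison with Timp4-positive cells. Mest, an imprinted gene of growing tissue, was at 617, 263 and 50.99 CPM.

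Cells without Aplnr held RNA of arterial genes. Of 17 arterial genes, 10 were at least 2-fold higher in these 29 cells than in Timp4-positive cells and 2 lower, beside the 8.54% and 13.3% of all genes given above, with a median of 1.51. Gja5, a gap junction protein of arteries, was at 197 CPM without Aplnr, 10.4 CPM with Aplnr and another gene and 5.04 CPM with Aplnr alone, found in 7, 14 and 6 cells. Gja4 was at 361, 54.5 and 78.3 CPM, and Hey1, a Notch target, at 69.2, 14.4 and 20.1 CPM. Stmn2 was at 867, 130.3 and 106 CPM. Vwf, which large arteries and veins both make, was at 845 CPM in these cells, which without Aplnr had to meet the rule by Vwf, Ackr1 and Selp. In the same cells the venous list had a median of 1.64, with 10 of 17 genes higher, and all genes had a median of -0.06. Red cell genes were higher in these cells too, 4 of 4 with a median of 6.09, with the Hba-a1 UMIs in 1 of the 29 cells, and their part was not tested.

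**Figure D5:**
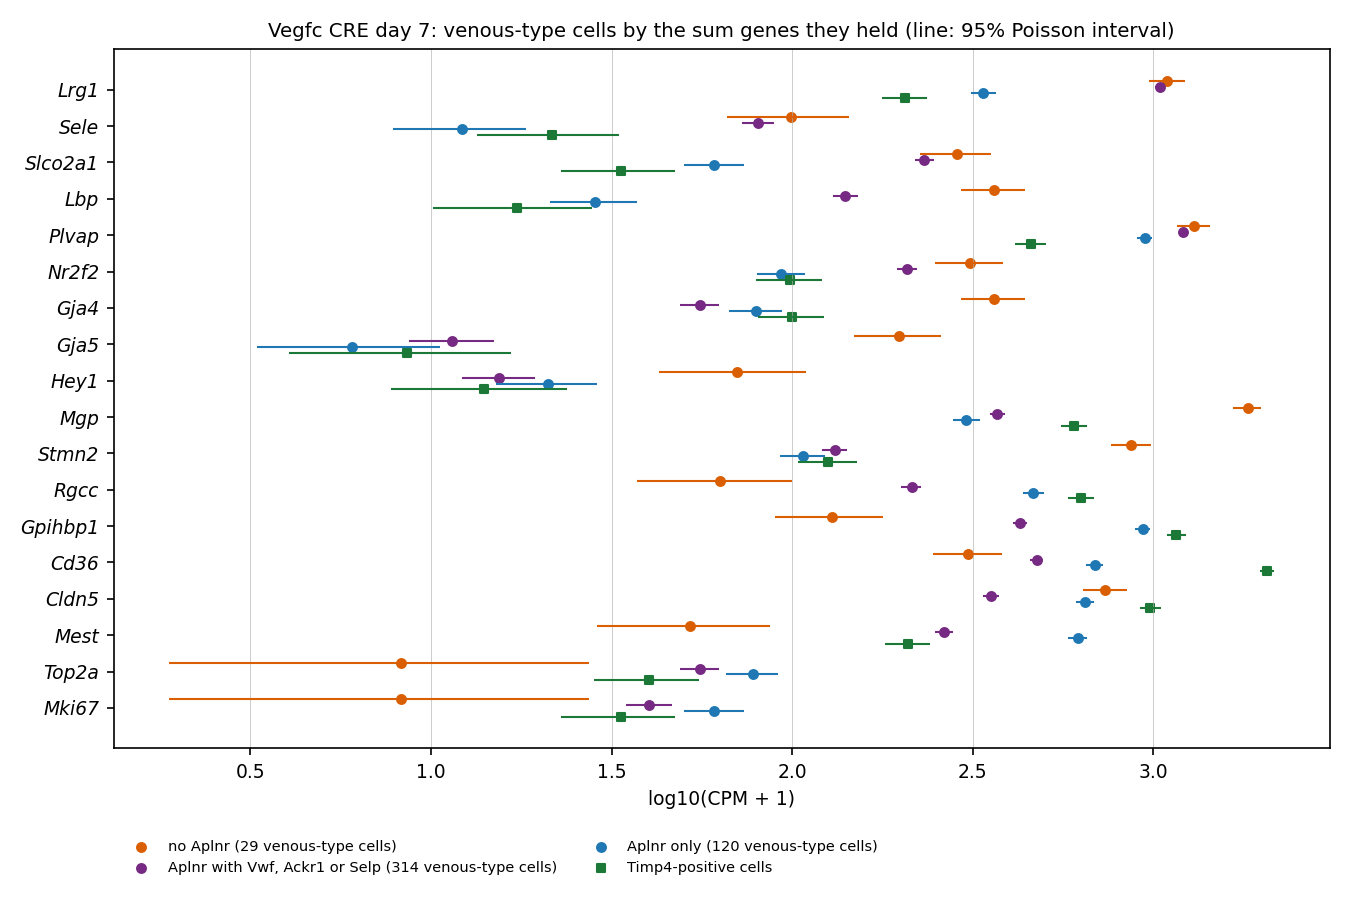
Level of 18 genes in 3 kinds of venous-type cells of Vegfc CRE day 7 and in Timp4-positive cells, as log10(CPM + 1), with 95% Poisson intervals of the summed count. Lrg1, Sele and Slco2a1 are lowest among venous-type cells in those with Aplnr alone, and Gja4, Gja5 and Hey1 are highest in those without Aplnr.

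Cells with an Ackr1 UMI held more RNA of venular genes than those without. The 154 cells of Vegfc CRE day 7 with an Ackr1 UMI had Lrg1 at 1670.1 CPM, against 534 CPM in the 309 without, and Sele at 136 against 33.01 CPM. Slco2a1 was at 423 against 94.8 CPM, and Glycam1 at 168 against 20.1 CPM. The cells with an Ackr1 UMI were the lower ones for Cldn5, at 130.2 against 574 CPM, for Mest, at 117 against 441 CPM, and for Gpihbp1, at 151 against 707 CPM. The proliferation list had 11 of 16 genes 2-fold or more lower with an Ackr1 UMI, and of 18 tip genes also 11, beside 8.78% of all genes. Fibroblast genes were that much lower in 8 of 10 cases (median -2.30) and pericyte genes in 6 of 10 (median -1.38), while 4 of 4 red cell genes were higher, beside 5.05% of all genes, and their part in this split was not tested. Esm1, a marker of sprouting tips, had no UMI in the 154 cells and was at 24.97 CPM in the 309. The cells with an Ackr1 UMI had a median depth of 9948.5 UMIs and those without 12022. Ackr1 UMIs were in 33.3% of venous-type cells of this library and 1.02% of Timp4-positive cells, beside 3.07% of barcodes without Pecam1 and Cdh5 UMIs. Ackr1 is a gene of the venous sum and Timp4-positive cells were taken with any sum, so these shares describe the members only.

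In Prox1 eGFP day 21 the split was coarser, since 17 cells held Aplnr with another gene, 13 had none and 2 had Aplnr alone. The 13 cells without Aplnr had a median depth of 6266 UMIs, against 12735 in the 17. Cytl1, a small secreted protein, was at 2325 CPM without Aplnr and 354 CPM in the 17 cells. Mgp, an inhibitor of calcification, was at 5597 and 539.8 CPM, and Vwf at 1963 and 547 CPM. The 17 cells were higher for Selp, at 973 CPM beside 280.4 CPM without Aplnr, and for Col4a1, a collagen of the basement membrane, at 999.9 beside 46.7 CPM. Gja5 had no UMI in either kind, and the arterial list had a median of -0.29 in the cells without Aplnr, beside -0.08 over all genes. The arterial genes found in cells without Aplnr in Vegfc CRE day 7 thus did not stand out in those of Prox1 eGFP day 21, at 13 cells.

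Venous-type cells of the 2 libraries were then set side by side. Of 12212 genes measured, 2045 (16.7%) were at least 2-fold higher in Prox1 eGFP day 21 and 1294 (10.6%) lower. A minimum of 30 UMIs gave 837 higher genes, and thinning gave 685 lower ones. For most genes below, the ratio of Prox1 eGFP day 21 over Vegfc CRE day 7 in barcodes outside the endothelial filter is given too.

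Cytl1 was at 778 CPM in venous-type cells of Prox1 eGFP day 21, against 6.25 CPM in those of Vegfc CRE day 7 (125-fold, 95% interval 89.6 to 177), found in 17 of 32 and 9 of 463 cells, and was 13.1-fold higher outside the filter. In Timp4-positive cells Cytl1 was at 0 and 3.25 CPM, so in Prox1 eGFP day 21 it was found in venous-type and not in Timp4-positive cells. Cd24a, a surface glycoprotein, was at 128 against 5.79 CPM, and Ccdc3, a secreted protein of vessels, at 98.6 against 6.10 CPM. Also named by the same rule were Agr2, Kcnt2, Gria3, Ccdc68, Lpcat2 and Ccl19, and the 11 UMIs of Ccl19 in Prox1 eGFP day 21 came from 1 cell.

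Icam1 and Sele were higher in Prox1 eGFP day 21. Icam1 was at 679.6 CPM against 134 CPM in Vegfc CRE day 7 (5.05-fold, 95% interval 4.38 to 5.82), and Sele at 322 against 61.7 CPM, with ratios of 0.881 and 3.69 outside the filter. Over the 14 measured genes of the adhesion list 5 were at least 2-fold higher and 1 lower, with a median of 0.07, beside 0.13 over all genes. Of all genes in venous-type cells, 16.7% were that much higher and 10.6% lower. Of the venous list, 10 of 18 genes were at least 2-fold higher in Prox1 eGFP day 21 (median 1.13), while the median of the same list was -0.51 in Timp4-positive cells and 1.22 in barcodes outside the filter. Immediate early and heat shock genes, which respond to stress and also to tissue digestion, were at least 2-fold higher in 12 of 16 cases, with a median of 2.11. In Timp4-positive cells 8 of 16 were higher, beside 7.32% of all genes, with a median of 1.01, and outside the filter 12 of 16, beside 16.4% of all genes, with a median of 2.16. Fos was at 2217 against 327 CPM, 6.79-fold in venous-type cells and 7.01-fold outside the filter. Ier3, an early gene of the same list, was 7.96-fold higher in venous-type cells and 1.23-fold outside. The part of the library-wide difference in these lists was not tested.

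Genes of matrix and cell division were lower in Prox1 eGFP day 21. Col4a1 was at 861 against 2179 CPM and Col18a1, the parent of endostatin, at 229 against 624 CPM. In Timp4-positive cells the ratio of Prox1 eGFP day 21 over Vegfc CRE day 7 was 0.659 for Col4a1 and 0.335 for Col18a1. Of 13 measured basement membrane genes, 7 were at least 2-fold lower in Prox1 eGFP day 21 (median -1.10), 3 of 13 in Timp4-positive cells, beside 10.6% of all genes in each, and the median outside the filter was 0.20. Mest was at 10.7 against 350.4 CPM (32.9-fold lower), with a ratio of 0.350 outside the filter and 0.096 in Timp4-positive cells. Col1a1, the main collagen of tendon, was at 7.995 against 1363 CPM, with a ratio of 0.253 outside the filter and 1.22 in Timp4-positive cells. Without the cells rich in globin or collagen UMIs, of which 1 was left out of the 32 and 46 of the 463, Col1a1 was at 5.59 against 81.8 CPM. Hist1h2ap, a histone gene, and Ube2c, of mitosis, had no UMI in the 32 cells and were at 123 and 87.95 CPM in Vegfc CRE day 7, at least 15.4-fold and 11-fold lower against a floor of 3 UMIs over the group, and 12.5-fold and 8.92-fold lower at the near limits of the 95% intervals. Nts was at 13.3 against 245 CPM, with 41.4% of its UMIs in Vegfc CRE day 7 from 1 cell and a ratio in the other direction, 130.2, outside the filter. Col1a2, Postn, Fn1, Thbs4 and Col3a1, also named by the rule, are genes of tendon fibroblasts, whose RNA is given below.

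Cells were then counted by their UMIs of Mki67 and Top2a, genes of dividing cells. At least 2 UMIs of Mki67 and Top2a together were found in 0 of 32 venous-type cells of Prox1 eGFP day 21, which allows a share of cells with such UMIs, not of dividing cells, of up to 9.38% at a floor of 3 counts and 10.9% by the exact 95% interval, and in 55 of 463 (11.9%, exact 95% interval 9.08% to 15.2%) of Vegfc CRE day 7. In Timp4-positive cells the counts were 1 of 37 and 3 of 98. After thinning to 2000 UMIs, at least 1 such UMI was found in 0% and 6.96% of venous-type and 3.03% and 3.30% of Timp4-positive cells. The 55 cells had a median of 21201 UMIs, deeper than the 11194 of all 463. The proliferation list held 13 of 16 genes that were 2-fold or more lower in venous-type cells of Prox1 eGFP day 21 than of Vegfc CRE day 7, beside 10.6% of all genes. The median of the list was -2.16 in venous-type cells, beside -0.17 in Timp4-positive cells and -0.32 outside the filter. Against Timp4-positive cells of the same library, 6 of 6 measured genes were at least 2-fold lower in Prox1 eGFP day 21, beside 13.6% of all genes. In Vegfc CRE day 7, 5 of 16 were that much higher and 0 lower, beside 7.52% and 9.48% of all genes. The difference between libraries was not tested. Of the 6 in Prox1 eGFP day 21, all but Pcna and Tyms had 0 or 1 UMI in the 32 venous-type cells, so they were measured through the Timp4-positive cells. Without the cells rich in globin or collagen UMIs, Birc5 had no UMI in either class of this library. Cdk1 was then at 2.80 CPM in venous-type and 3.47 CPM in Timp4-positive cells, so the difference in these genes rested on the cells left out. With Aplnr left out of the sum, the median of the list in Vegfc CRE day 7 was 0.0041, beside 0.68 with it.

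RNA of other cells was present in unequal amounts. The 10 fibroblast and tenocyte genes summed to 267 CPM in venous-type and 2354 CPM in Timp4-positive cells of Prox1 eGFP day 21, and to 3912 and 1946 CPM in those of Vegfc CRE day 7, with 3 and 1 genes at 0 in the first library and none in the other. Outside the filter the sums were 9463 and 33041 CPM. In Prox1 eGFP day 21, 1 Timp4-positive cell held 93.2% of the collagen UMIs of that class, and 43 of the 463 venous-type cells of Vegfc CRE day 7 held 10 or more collagen and decorin UMIs. Pericyte and smooth muscle genes summed to 1071 CPM in venous-type and 2139.6 CPM in Timp4-positive cells of Prox1 eGFP day 21, and to 953 and 3148 CPM in those of Vegfc CRE day 7, so this list was lower in venous-type cells of both, as were Rgs5 and Cxcl12 above. Leukocyte genes summed to 13.3 and 8.57 CPM, with 7 of 10 at 0 in each class, and to 278 and 205 CPM. Lymphatic genes summed to 243 and 171 CPM and to 312 and 66.1 CPM, and muscle genes to 58.6 and 120 and to 38.7 and 95.4 CPM, venous-type first. Platelet genes summed to 26.7 and 51.4 CPM and to 53.5 and 30.4 CPM, beside Vwf at 832 and 220 CPM and Selp at 746 and 237 CPM in venous-type cells, which platelets also hold. Red cell genes summed to 13.3 and 21385 CPM in Prox1 eGFP day 21, where 1 Timp4-positive cell held nearly all of them, and to 99.1 and 9.76 CPM in Vegfc CRE day 7. Without the cells rich in globin or collagen UMIs, the capillary median in Vegfc CRE day 7 was -1.62 and the arterial one -0.27. The part of RNA from other cells in the comparisons above was not tested.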

How the data were processed

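Single cells of digested tendon were profiled with the 10x Single Cell 3' v3 chemistry in 4 libraries, 1 per group, each a pool of 5 tendons; 2 libraries were used here. The authors deposited matrices of whole UMI counts per gene and barcode for 32285 genes, made with Cell Ranger 5.0.1 on mm10, per the submitters' processing notes. Members and gene lists were chosen with earlier results of these data known. Counts of cells of a class were summed per library and divided by the class's total, as counts per 1000000 UMIs (CPM). Ratios have exact conditional binomial 95% intervals and levels Poisson intervals, for counting error only; with 1 library per group no test was made. A gene was measured with at least 10 UMIs over both classes, and a class at 0 was set to 3 UMIs for medians. The 10 genes of the rule were left out of counts. Named genes were the 12 higher and 12 lower, at least 2-fold apart in both libraries, with the counting-interval bound farthest from no difference, and for the libraries the 10 each way whose ratio outside the filter was at least 2-fold smaller; mitochondrial, ribosomal and unnamed model genes were left out. Other genes came from 26 lists or were at least 2-fold apart. Thinning drew 2000 UMIs per cell without replacement and left shallower cells out. Scrublet in scanpy 1.11.5 marked 87 and 93 barcodes as doublets, 0 and 10 of them venous-type; they were kept. TMM factors came from edgeR 4.0.16. Other tools were Python 3.11.15, numpy 2.4.6, scipy 1.17.1 and pandas 2.3.3. Ratios and intervals were tested on simulated data. Promoters came from RefSeq (GRCm38.p6). A few genes that the naming rule or lists chose are not reported here.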

Additional observations from a re-analysis of the deposited data

Results flagged for a closer look

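Several genes differed between venous-type and Timp4-positive cells in opposite directions in the 2 libraries, by counting intervals that lay on opposite sides of no difference; with 1 library per group the difference between libraries was not tested. Values are log2 ratios of venous-type over Timp4-positive cells, Prox1 eGFP day 21 first and Vegfc CRE day 7 after it. Genes of tendon matrix stood at -6.43 and 1.27 (Col1a1), -4.46 and 1.25 (Fn1), -4.22 and 1.60 (Thbs4) and -2.26 and 2.05 (Dcn), where 1 Timp4-positive cell of Prox1 eGFP day 21 held 93.2% of the collagen UMIs of its class. Without the cells rich in globin or collagen UMIs, Dcn stood at 4.55 and -0.36 and Col1a1 at -1.63 and -0.51, so neither kept both its directions. Fn1 then stood at -1.75 and 0.66 and kept both. Genes of DNA synthesis stood at -2.20 and 1.02 (Tyms) and at -2.84 and 1.56 (Rrm2). In Prox1 eGFP day 21 Rrm2 had no UMI in venous-type cells and 20 UMIs in 1 Timp4-positive cell, and without the same cells it had none in either class, while Tyms stood at 0.17 and 1.58. Globins stood at -10.80 and 3.34 (Hbb-bs) and at -9.48 and 4.26 (Hba-a1), where 1 Timp4-positive cell of Prox1 eGFP day 21 held nearly all globin UMIs of its class. Nts, a neuropeptide made by lymphatic endothelium, stood at -2.69 and 6.24, with 41.4% of its UMIs in Vegfc CRE day 7 from 1 venous-type cell. Cxcl2, a chemokine for neutrophils, stood at -4.49 and 2.28, with 72.4% of its UMIs in Vegfc CRE day 7 from 1 cell. Vegfc, the lymphatic growth factor, stood at 2.12 and -1.25, and Ccdc3 at 4.11 and -1.09.

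Outside the comparisons, 4 barcodes of Prox1 eGFP day 0 and 2 of Prox1 eGFP day 7 met the rule. One label of Prox1 eGFP day 0 gives no treatment and another gives B/T.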

How the results depend on the processing

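No paired analysis was possible because each group is 1 library. Of the recomputed main counts and medians, 120 stayed within 1.5 times (counts) or within the median of the genes' counting intervals (medians), and 28 did not. The members of Vegfc CRE day 7 numbered 251 with Aplnr left out of the sum, 221 with the rule applied to thinned cells and 154 with an Ackr1 UMI only (17 in Prox1 eGFP day 21); the Ackr1 restriction and the settings without the deepest or mixed cells were chosen after seeing the data. Genes higher than in Timp4-positive cells in both libraries numbered 81 after thinning, 297 by mean CPM per cell and 74 at a minimum of 30 UMIs; lower ones numbered 118 after thinning and 144 at 30 UMIs. Between libraries, higher genes numbered 3495 at a minimum of 1 UMI, 837 at 30 and 1319 with Ackr1 only, and lower ones 685 after thinning. The venous median in Vegfc CRE day 7 was 1.40 without Aplnr, 1.28 by mean CPM and 1.57 with Ackr1 only, and in Prox1 eGFP day 21 it was 3.69 against Timp4-positive cells with a sum under 3. The capillary median in Vegfc CRE day 7 was -1.95 without Aplnr, -1.67 by mean CPM, -1.31 with TMM factors, -1.65 against Timp4-positive cells with a sum under 3, -1.62 without mixed cells and -2.28 with Ackr1 only; in Prox1 eGFP day 21 it was -2.86 with Ackr1 only. The arterial median was 0.28 after thinning in Prox1 eGFP day 21, and in Vegfc CRE day 7 it was -0.90 against Timp4-positive cells with a sum under 3, -0.27 without mixed cells and -0.995 with Ackr1 only. The fibroblast median changed sign: in Prox1 eGFP day 21 it was 0.26 without the deepest cells and 1.17 without mixed cells, and in Vegfc CRE day 7 -0.51 without mixed cells and -0.65 with Ackr1 only. Causes were not tested, except that the stricter minimum tests fewer genes. With 32 cells, Prox1 eGFP day 21 limits every comparison it enters.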
